A study of Rattus norvegicus with 13 samples.

Results

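Nuclear genes of the mitochondrial respiratory chain were read from 13 one-colour Agilent arrays of rat thyroid, of which 6 belong to the KI-treated and 7 to the control animals. Members were the gene probes whose symbol begins with Nduf, Sdh and a letter from a to d, Uqcr, Cox and a digit from 4 to 8, or Atp5. They were selected by name and by the scanner software's flag for spots well above background, which had to be set on at least 6 arrays, and each gene was represented by its brightest probe. Of 92 genes with such a name, on 127 probes, 90 had a tested probe, out of 20721 different gene names on 25717 tested probes. The KI contrast did not enter this rule, but the members were chosen with earlier results of these data known. They comprised 42 genes of complex I, 6 of complex II, 8 of complex III, 16 of complex IV and 16 of complex V, the ATP synthase, with the assembly factors of a complex counted in it. The 16 of complex V include Atp5s (now Dmac2l), a factor outside the enzyme. Cox6c-ps1, a pseudogene of Cox6c that may share its signal, and Atp5sl, which is not a subunit despite its name, were kept apart. All but 1 of the 90 were well above background on all 13 arrays. Ndufs4, on 12 arrays, lay nearest to the limit inside it, and Cox7b2 and Cox8c, the isoforms outside it, were flagged on 0 arrays.

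The animals were male Wistar rats, and each array was taken as 1 animal. The dams of the KI-treated group had been given potassium iodide, the stable iodine used for thyroid protection, at 1 mg/kg/day by gavage for 8 days from gestational day 9, and the dams of the control group saline over the same days. The thyroids were taken 30 days after weaning, 51 days after birth, so exposure was before birth. Litters were not named, and p-values therefore measure only the spread between these animals, some of which may be littermates.

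Oxidative phosphorylation runs through 5 protein complexes of the inner mitochondrial membrane. Complexes I and II pass electrons from NADH and succinate to ubiquinone, complex III hands them to cytochrome c, complex IV reduces oxygen, and complex V makes ATP from the proton gradient. Most subunits are encoded in the nucleus and a few in mitochondrial DNA, and some subunits of complex IV have separate isoforms for heart and skeletal muscle. In the thyroid the chain supplies ATP for iodide uptake, which depends on the sodium gradient, and for the synthesis and secretion of thyroglobulin.

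Control arrays 4 and 6 stood apart from the rest and touch most results below. Between 34840 and 41050 of 58717 gene spots per array were well above background, the lowest number being that of control 6. Of 11 follicular cell markers 10 were tested, and thyroglobulin (Tg) lay between 9.80 and 10.58, in log2 of the signal relative to the array's 75th percentile, the scale of all levels given here. The KI-minus-control difference of Tg was -0.26 ± 0.12 in log2 (exact permutation p = 0.0303; limma adjusted p = 0.39), with -0.14 without controls 4 and 6, where it was highest at 10.58 on both, and 0.07 after quantile normalization. Of the 10 markers 8 were below 0, with a median of -0.14 (-0.03 without those arrays). The 2 above 0 were both higher at an unadjusted limma p under 0.05, against 5.71% of all tested probes, and 1 marker was lower, against 7.01%. Without controls 4 and 6 the counts were 1 higher and 1 lower. Over 3410 genes with a pair of probes on one strand, 200 to 200000 bases apart, the median of the upstream minus the downstream probe, as a deviation from each gene's mean, was -0.42 on control 4, -0.29 on control 6 and -0.08 on control 7. It lay between 0.03 and 0.12 on the other 10 arrays. Over the 17 members with such a pair the spread was smaller. Their median was -0.05 on control 4, -0.14 on control 6 and -0.07 on control 7, and from -0.01 to 0.13 on the other 10. A low value means less signal far from the 3′ end, where labelling with oligo-dT starts. Values without controls 4 and 6 are given beside the results; this alternative was chosen after seeing the data.

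No member differed between the groups after adjustment (limma, 0 of 90; 0 of 25717 tested probes, 0%), and the smallest adjusted p among the members was 0.354. At an unadjusted limma p under 0.05, 4 members were higher in the KI-treated group, against 5.71% of all tested probes, and 5 were lower, against 7.01%. These shares of the members, 4.44% and 5.56%, lay below those of all probes. For 0 of 90 members did the groups fail to overlap, against 0.261% of all probes with the KI-treated group higher and 0.327% with it lower.

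Most members were nevertheless a little lower in the KI-treated group. Of the 90, 77 had a log2 difference, KI-treated minus control, below 0, and the median was -0.19, against -0.08 over all tested probes. In bulk tissue, fewer cells of a kind and less RNA per cell cannot be told apart. The median deviation of the members from their means over the 13 arrays was 0.49 on control 4 and 0.47 on control 6. On the other 5 control arrays it ran from -0.27 on control 1 to 0.04, and on the 6 KI-treated arrays from -0.17 to -0.02. Apart from controls 4 and 6 the groups therefore overlapped throughout. Controls 4 and 6 were the brightest pair of arrays for 67 of 90 members, and control 1 the dimmest array for 48. Without controls 4 and 6 the median was -0.04, with 58 members below 0 and 32 above, against -0.01 over all probes.

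**Figure D1:**
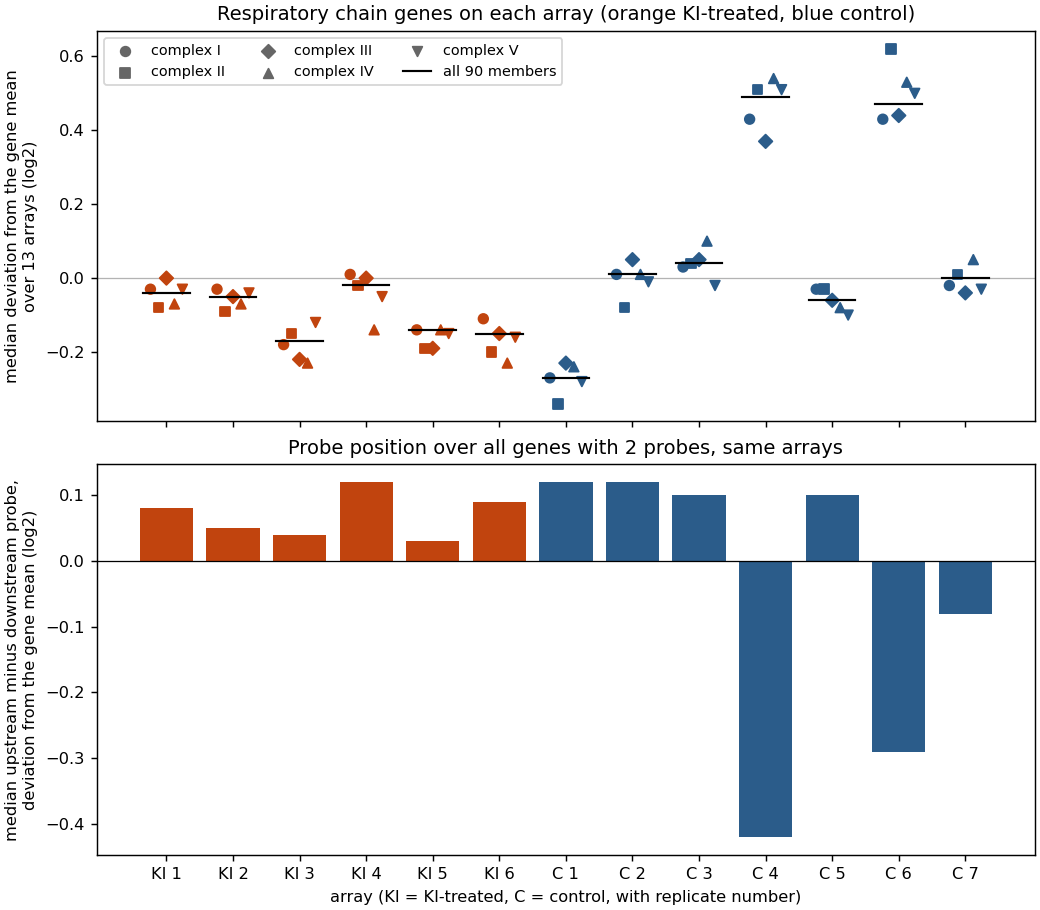
The upper panel plots, for each array, the median over the members of each complex (symbols) and over all 90 members (black line) of the deviation from the gene's mean over 13 arrays, in log2. The lower panel plots the median upstream minus downstream probe over 3410 genes as a deviation from the gene mean. Controls 4 and 6 have member medians of 0.49 and 0.47 and the lowest position values, -0.42 and -0.29. Over the 17 members with a pair of probes, not plotted, the position values of these arrays are -0.05 and -0.14.

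The slides differed in the same way. On slides 1 and 2, which carried controls 4 and 6 beside 1 KI-treated array each, the median difference of the members was -0.53 and -0.65. It was -0.11 on slide 3, 0.15 on slide 4 and -0.02 on slide 5, while slide 6 held only a control array. By scan session it was -0.59, 0.04 and -0.01. Leaving out 1 array at a time gave medians from -0.251 without control 1 to -0.124 without control 6. The count of 5 lower members became 30 without control 1, 8 without control 5, 3 without KI-treated 1, KI-treated 5 or control 4, 2 without KI-treated 3 or KI-treated 6, and 1 without control 6. Of all tested probes 9.76% were lower without control 1, 7.14% without control 5 and 6.65% without control 6. Leaving out other single arrays gave no share below the 4.87% without KI-treated 1 or above 9.76%. The count of 4 higher members became 2 without KI-treated 4 or without control 6, against 4.36% and 3.53% of all tested probes. Without controls 4 and 6 together, 5 members were higher, against 3.46% of all probes, and 1 was lower, Cox7c, against 5.91%. The 5 were Ndufa9, Uqcrc1, Atp5b, Atp5c1 and Uqcrfs1, the Rieske iron-sulfur protein of complex III, whose difference went from 0.15 to 0.23 and which is named only for this count.

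The members are bright probes, and bright probes were lower as a whole. When the tested probes were split into 20 bins of equal size by mean brightness, 43 of 90 members fell in the brightest bin and 79 in the 5 brightest. The median difference over all probes was -0.11 in the lowest of those 5 bins and -0.19 in the brightest, which is also the median of the members. With controls 4 and 6 left out these bin medians were 0.01 and -0.06. After quantile normalization, which gives every array the same distribution of values, the members had a median of -0.04, with 34 above 0 and 56 below. Whether brightness or probe position produced the difference was not tested.

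**Figure D2:**
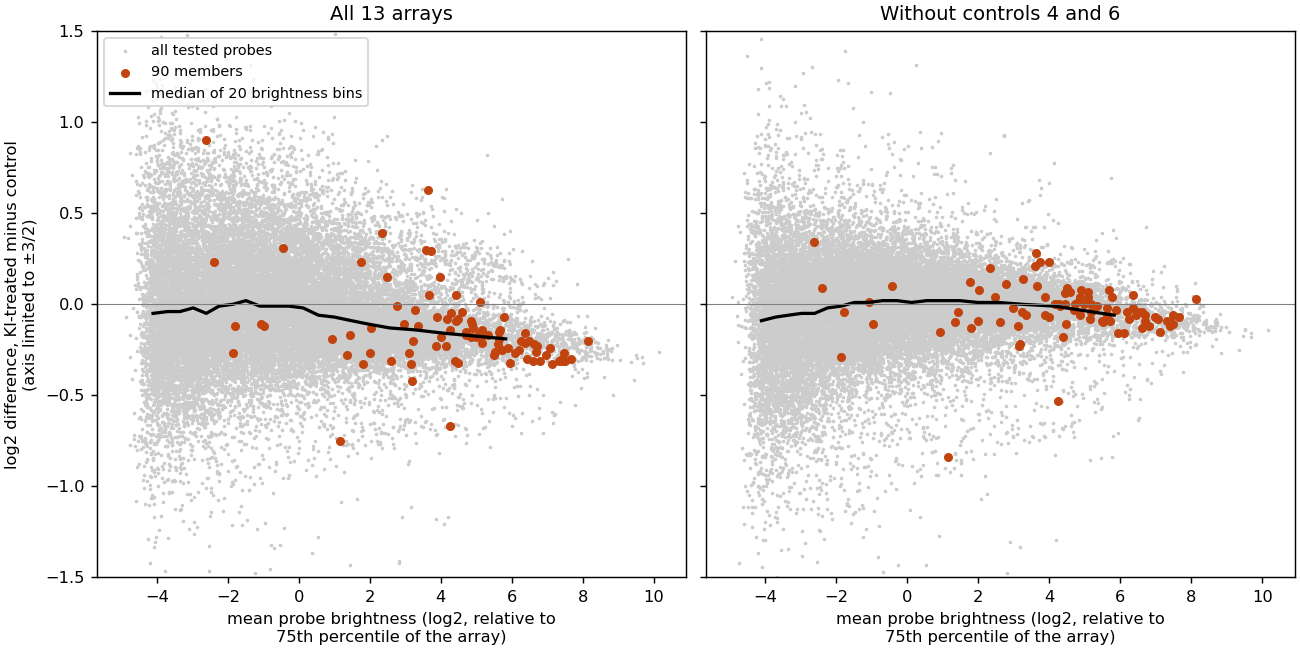
Each grey point is a tested probe, each orange point a member, with the log2 difference KI-treated minus control plotted against mean brightness, and the black line joins the medians of 20 brightness bins. With all 13 arrays (left) the line falls to -0.19 at the bright end where most members lie, and without controls 4 and 6 (right) it ends at -0.06; 15 and 27 probes lie beyond the axis.

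Complex I, the NADH dehydrogenase, had a median difference of -0.14, with 6 of 42 genes above 0, and of -0.03 without controls 4 and 6. The 7 measured core subunits, which carry the flavin, the iron-sulfur clusters and the quinone site, had a median of -0.03, the 28 accessory subunits -0.16 and the 7 assembly factors, the Ndufaf genes, -0.17. Among the core subunits Ndufs7, which helps to form the quinone site, ranged from 3.70 to 4.45 (median 4.36) in the KI-treated group and from 4.29 to 5.01 (median 4.40) in the control group, a log2 difference of -0.31 ± 0.16 (SE). Its groups overlapped between 4.29 and 4.45 (exact permutation p = 0.0664), and without controls 4 and 6 the difference was -0.18.

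Ndufa9, an accessory subunit near the quinone site, was the only gene of complex I with an unadjusted limma p under 0.05. It ranged from 2.41 to 2.72 (median 2.55) in the KI-treated group and from 1.30 to 2.52 (median 2.32) in the control group. All 6 KI-treated arrays lay above the control median, and control 4 lay far below the rest at 1.30. The log2 difference was 0.39 ± 0.17 (SE; exact permutation p = 0.014; limma adjusted p = 0.385), and 0.20 without controls 4 and 6. Within slides 1 to 5 it was 1.33, 0.40, 0.03, 0.28 and 0.32.

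Ndufs4, an accessory subunit whose loss causes complex I deficiency, had the highest difference of the members, 0.90 ± 0.43. It ranged from -2.44 to -1.90 (median -2.10) in the KI-treated group and from -5.15 on control 6 to -1.50 (median -2.93) in the control group. The control range enclosed the KI-treated one (exact permutation p = 0.074), and without controls 4 and 6 the difference was 0.34. Ndufa5, an accessory subunit of the peripheral arm, was lower by -0.31 ± 0.15 in log2 (exact permutation p = 0.0344; limma adjusted p = 0.393), with all 6 KI-treated arrays below the control median. Without controls 4 and 6 its difference was -0.13.

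Complex II, succinate dehydrogenase, is also an enzyme of the citric acid cycle. All 6 genes were below 0, with a median of -0.20. The flavoprotein Sdha had a difference of -0.09 ± 0.13, the iron-sulfur protein Sdhb -0.18 ± 0.12, and the membrane anchors Sdhc and Sdhd -0.23 ± 0.18 and -0.18 ± 0.14. None of these passed the unadjusted threshold, and the exact permutation p ran from 0.0944 for Sdhb to 0.46 for Sdha. The assembly factors Sdhaf2, which attaches the flavin, and Sdhaf3 had differences of -0.32 ± 0.20 and -0.28 ± 0.16. Without controls 4 and 6 the median was -0.03.

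Complex III, the cytochrome bc1 complex, had a median of -0.20, with 2 of 8 genes above 0. Uqcrc1, a core protein of the matrix side, was one of them. It ranged from 3.61 to 3.92 (median 3.72) in the KI-treated group and from 3.06 on control 4 to 3.74 (median 3.46) in the control group. Every KI-treated array was above the control median. The log2 difference was 0.30 ± 0.12 (SE; exact permutation p = 0.00699; limma adjusted p = 0.365), and 0.21 without controls 4 and 6. Its slide values ran from 0.04 on slide 3 to 0.86 on slide 1.

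Uqcrc2, the companion core protein, went the other way, with a difference of -0.23 ± 0.14 (exact permutation p = 0.0909). Uqcr11, a small subunit, ranged from 5.85 to 6.06 (median 5.94) with KI and from 5.94 to 6.60 (median 6.20) in the control group. All 6 KI-treated arrays lay below the control median, and control 6 was the highest. The difference was -0.27 ± 0.12 (exact permutation p = 0.0146; limma adjusted p = 0.38) and -0.16 without controls 4 and 6. Uqcr10, another small subunit, had -0.31 ± 0.18 (exact permutation p = 0.128).

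Complex IV, cytochrome c oxidase, had the lowest median of the 5 complexes, -0.30, with 1 of 16 genes above 0 and 4 of the 5 members that were lower at the unadjusted threshold. The median was -0.09 after quantile normalization and -0.10 without controls 4 and 6, still with 13 genes below 0. Whether it differed from the other complexes was not tested. The 10 subunits present in most tissues had a median of -0.28, or -0.09 without controls 4 and 6.

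Among these, Cox7c ranged from 2.86 to 3.12 (median 2.96) in the KI-treated group and from 3.05 to 3.64 (median 3.26) in the control group. Only 2 of the control arrays lay within the KI-treated range. The difference was -0.33 ± 0.12 (exact permutation p = 0.00758; limma adjusted p = 0.355), and it was -0.23 without controls 4 and 6, the only member that was then lower at the unadjusted threshold. Cox7c was lower on each of slides 1 to 5, by -0.78, -0.57, -0.05, -0.02 and -0.30. Another probe listed under Cox7c, which lies within the stretch that the first one spans, had a difference of 0.04 ± 0.12, and 0.13 without controls 4 and 6.

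Cox4i1, the regulatory subunit that binds ATP, ranged from 6.81 to 7.13 (median 6.95) with KI and from 6.85 to 7.82 (median 7.18) in the control group. Controls 4 and 6, at 7.82 and 7.61, were the only arrays above 7.22. The difference was -0.33 ± 0.15 (exact permutation p = 0.0332; limma adjusted p = 0.387), but -0.15 without them and 0.11 on slide 4. The partners of the other tissue isoforms were similar, Cox6a1 with -0.30 ± 0.18, Cox8a with -0.31 ± 0.15 and Cox7a2 with -0.20 ± 0.13. Ndufa4, now counted as a subunit of this complex, had -0.07 ± 0.14 and was above 0 after quantile normalization (0.10).

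The tissue isoforms Cox8b and Cox6a2 varied more between animals than these partners. In the control group Cox4i2, Cox6b2 and Ndufa4l2 had SDs of 0.41, 0.38 and 0.31, below the 0.44 of Cox6a1. Cox8b, the isoform of heart, skeletal muscle and brown fat, ranged from 2.80 on KI-treated 6 to 4.47 (median 4.10) in the KI-treated group and from 3.83 to 5.36 on control 6 (median 4.54) in the control group. All 6 KI-treated arrays were below the control median, and the ranges overlapped. The difference was -0.67 ± 0.27 (exact permutation p = 0.0396; limma adjusted p = 0.375), and -0.53 without controls 4 and 6, while on slide 4 it was 0.23. Adiponectin (Adipoq), a marker of fat cells, was likewise lowest on KI-treated 6, at 2.40, and highest on control 6, at 4.0. Of 6 adipocyte markers 2, Adipoq and Cfd, were lower at the unadjusted threshold, against 7.01% of all probes, and 0 higher. Of these 6 markers 2 others were above 0, and without controls 4 and 6 the count of lower ones was 0. Their summed linear signal, in units of the array's 75th percentile, ran from 20.7 to 48.9 with KI and from 43.2 to 66.8 in the control group. Of the 4 tested brown adipocyte markers, whose sums were 46.2 to 147 and 60.7 to 140, only Elovl3 was lower. Ucp1, the protein that defines brown fat, was well above background on all 13 arrays, between 5.28 and 7.06.

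Cox6a2, the heart and skeletal muscle isoform of subunit VIa, had the widest spread of the named subunits. It ranged from -1.31 on KI-treated 4 to 3.02 on KI-treated 2 (median 0.39), and in the control group from 0.19 to 3.38 on control 5 (median 1.53). The difference of -0.75 ± 0.62 lay within the spread of the animals (exact permutation p = 0.307), and it was -0.84 without controls 4 and 6. Muscle creatine kinase (Ckm) was also highest on the same arrays of each group, at 2.75 on KI-treated 2 and 4.28 on control 5, and lowest on KI-treated 4, at -1.87. All 13 tested muscle markers were below 0, with a median difference of -1.17 (-1.33 without controls 4 and 6). At the unadjusted threshold 2 of them, Pvalb and Actn3, were lower, against 7.01% of all probes. Without controls 4 and 6, 2 of the 13 were lower, against 5.91%. The summed signal of the 13 markers ran from 8.20 to 147 with KI and from 41.4 to 320 in the control group. Myh2 was not tested, and the part of muscle or fat cells in these isoforms was not tested.

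Cox6b2, described as a testis isoform, ranged from 2.50 to 3.13 (median 3.03) with KI and from 2.97 to 3.90 (median 3.30) in the control group. It had -0.42 ± 0.17 (exact permutation p = 0.0303; limma adjusted p = 0.376), and -0.22 without controls 4 and 6. Cox4i2, described in lung and under low oxygen, had -0.31 ± 0.17, and Ndufa4l2, which low oxygen induces, had 0.23 ± 0.15, the only gene of complex IV above 0 and one of 7 members for which controls 4 and 6 were the dimmest pair.

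**Figure D3:**
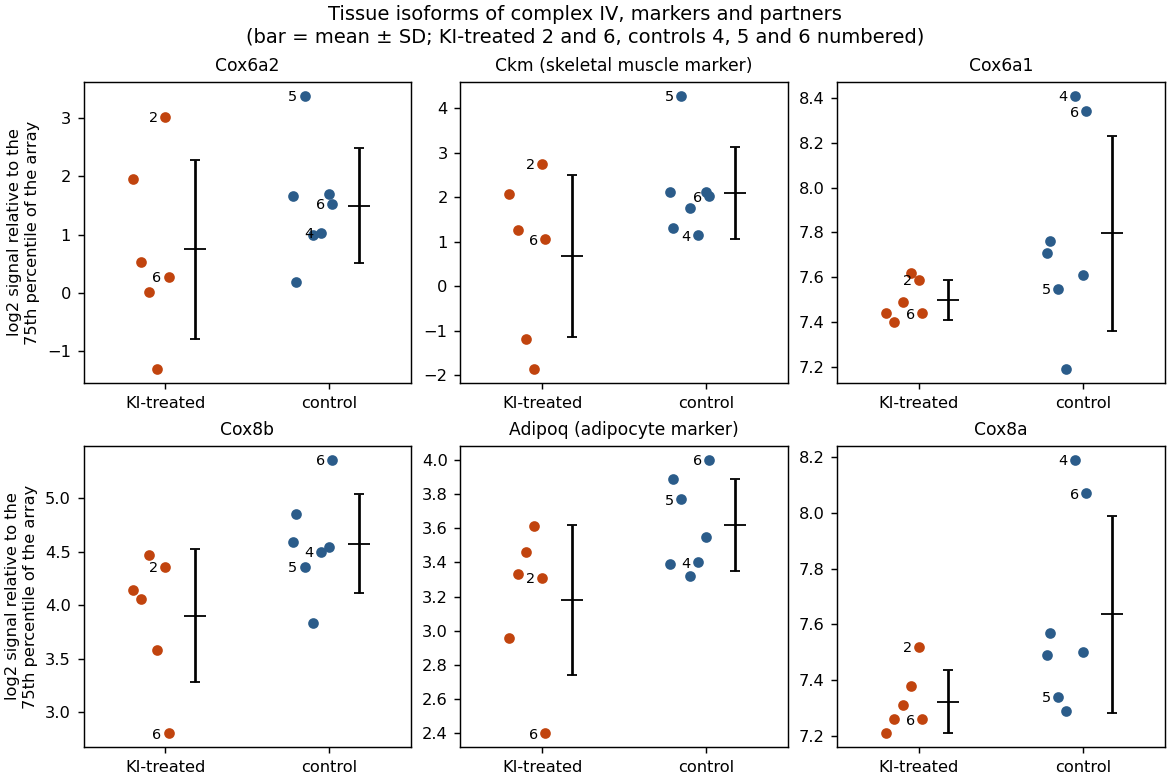
Points are single arrays, in log2 of the signal relative to the array's 75th percentile, with the mean and SD of each group as a bar. Cox6a2 and Ckm are highest on KI-treated 2 and control 5, Cox8b and Adipoq are lowest on KI-treated 6 and highest on control 6, and the ubiquitous partners Cox6a1 and Cox8a are highest on controls 4 and 6.

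Complex V, the ATP synthase, held the member with the lowest unadjusted p. Its median was -0.17, with 3 of 16 genes above 0, and 0.02 without controls 4 and 6, when 10 genes were above 0. Atp5c1 (now Atp5f1c) encodes the gamma subunit, the shaft that turns inside the catalytic head. It ranged from 3.74 to 4.08 (median 3.87) in the KI-treated group and from 3.38 to 3.75 (median 3.60) in the control group. The highest control arrays, 2 and 5, both at 3.75, only just reached the lowest KI-treated array. The log2 difference was 0.29 ± 0.10 (SE; exact permutation p = 0.0035; limma adjusted p = 0.354). It was above 0 on each of slides 1 to 5, with 0.48, 0.40, 0.13, 0.16 and 0.39, and it was 0.23 without controls 4 and 6 and 0.41 after quantile normalization.

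Atp5b (now Atp5f1b), the catalytic beta subunit, ranged from 3.87 to 4.24 (median 3.92) with KI and from 2.01 to 3.87 (median 3.57) in the control group. Control 4, at 2.01, and control 6, at 2.87, lay far below the other control arrays, which began at 3.48. The difference was 0.63 ± 0.26 (exact permutation p = 0.0128; limma adjusted p = 0.374), and 0.28 without these 2 arrays. Within slides it ran from 0.03 on slide 3 to 1.99 on slide 1.

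The other subunits of the catalytic head and those at the shaft did not pass limma's unadjusted threshold, and the differences between subunits were not tested. The alpha subunit Atp5a1 had -0.20 ± 0.17, the delta subunit Atp5d 0.05 ± 0.11 (0.06 and 0.19 after quantile normalization), and the epsilon subunit Atp5e, which binds to the shaft, -0.30 ± 0.15 (exact permutation p = 0.0396; limma adjusted p = 0.4). The 3 genes Atp5g1, Atp5g2 and Atp5g3 encode one mature subunit c of the rotor ring with different import sequences. Their differences were -0.14 ± 0.18, -0.24 ± 0.13 and -0.01 ± 0.12, and that of Atp5g3 was above 0 under the other scalings tried, at 0.10 after quantile normalization.

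**Figure D4:**
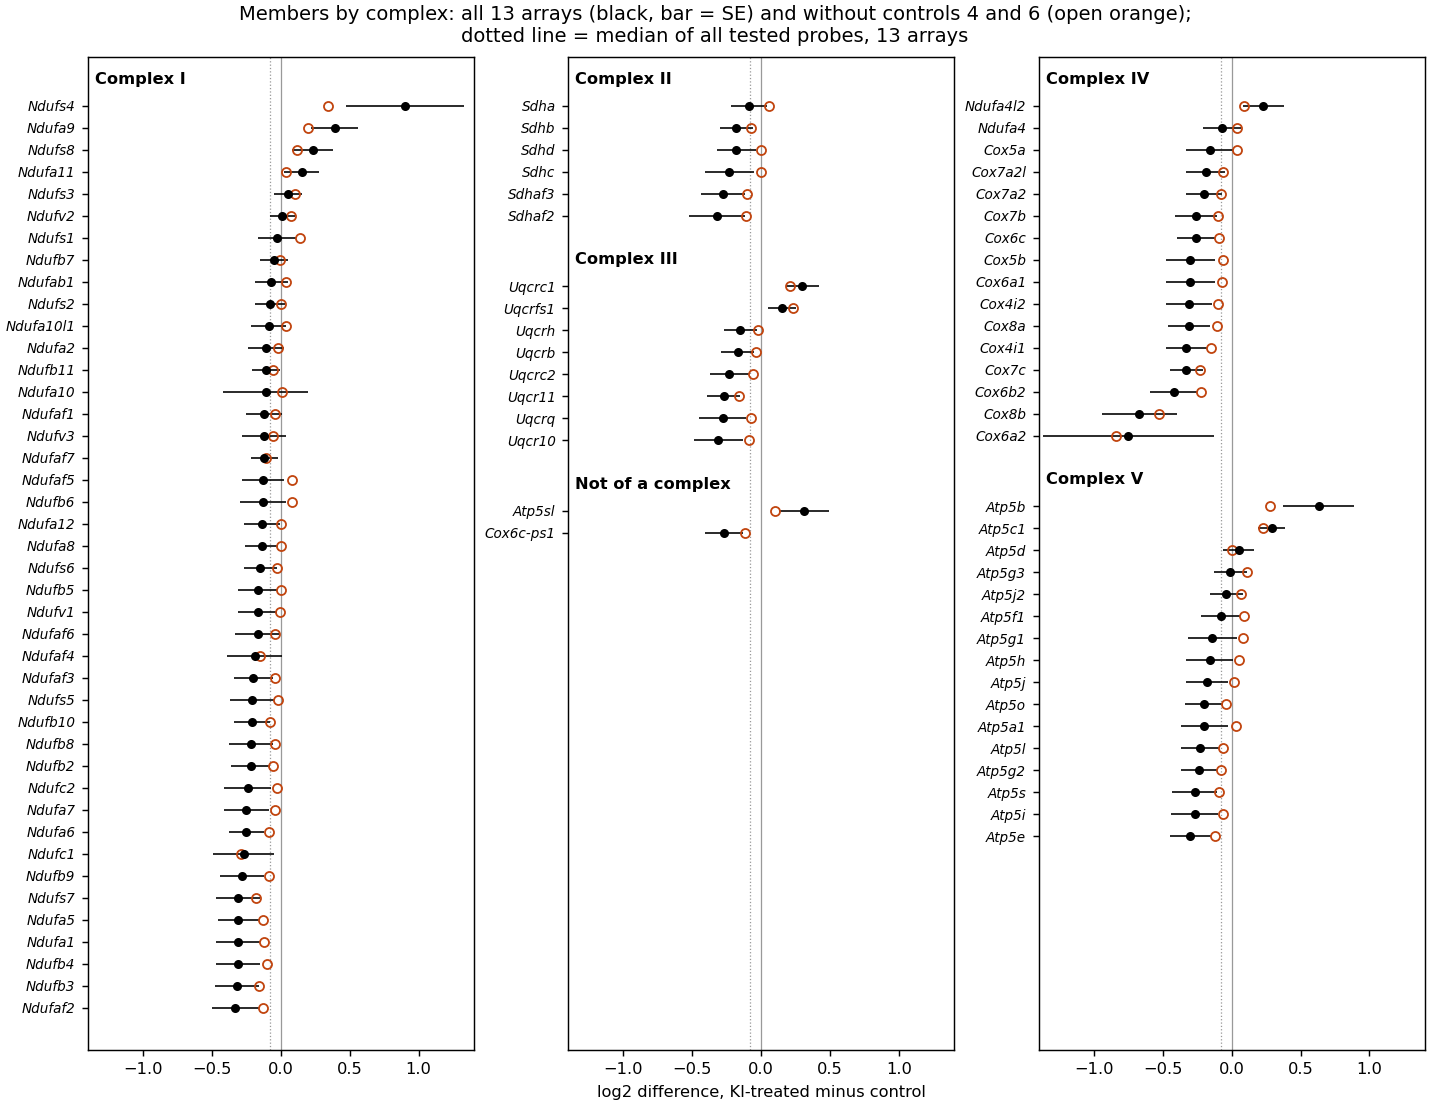
Log2 differences, KI-treated minus control, of the 90 members with the SE of the fit (black), sorted within each complex, and the differences without controls 4 and 6 (open orange). With all arrays 77 members lie below 0, and without controls 4 and 6 58 do, while Atp5b, Atp5c1, Uqcrc1 and Ndufa9 stay above 0.

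The direction of the difference varied with the class of the probe, as read from its bases and coordinates. Each probe is a 60-base oligonucleotide placed by its coordinates on the rn4 build. Probes that hold AATAAA, the polyadenylation signal found near the 3′ end of a transcript, formed a class whether or not they span an intron. Of 11 other members whose probe coordinates span an intron, so that the probe joins 2 exons, 5 were above 0. At the unadjusted threshold 3 of these were higher (Ndufa9, Uqcrc1 and Atp5c1) and 1 lower (Cox7c). Over all intron-spanning probes without AATAAA these calls numbered 260 higher and 147 lower of 2530. Of 18 members whose probe holds AATAAA, 1 was above 0 (Ndufv2, at 0.01), with 0 higher and 2 lower calls, against 30 and 236 of 2807 such probes. Among these 18, the probe coordinates of Ndufv2, Ndufv3 and Atp5h also span an intron. The medians were -0.11 and -0.23, and without controls 4 and 6 they were 0.08 and -0.07. Over all tested probes the same classes differed in the same way, with 1515 intron-spanning probes above 0 (median 0.08) and 429 probes with AATAAA above 0 (median -0.17); without controls 4 and 6 these medians were 0.01 and -0.02. The other 61 members, Atp5b and Ndufs4 among them, fell in neither class. Of these, 7 were above 0, with 1 higher and 2 lower calls. Their median was -0.18, and -0.04 without controls 4 and 6. Over all 20380 such probes the median was -0.07, with 1179 higher and 1419 lower calls. The probes of the 4 higher members are shown whole, without capitals, and for the cytochrome oxidase pair Cox4i1 and Cox4i2 a stretch of 30 bases with AATAAA in capitals.
Atp5b, chr7:1378451-1378510, plus strand: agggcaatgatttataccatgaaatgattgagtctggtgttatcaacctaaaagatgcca
Atp5c1, chr17:79755732-79756239, plus strand, over an intron: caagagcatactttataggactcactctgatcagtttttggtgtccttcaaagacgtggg
Ndufa9, chr4:163221522-163223453, minus strand, over an intron: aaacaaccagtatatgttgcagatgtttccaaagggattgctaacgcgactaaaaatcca
Uqcrc1, chr8:113965183-113965352, plus strand, over an intron: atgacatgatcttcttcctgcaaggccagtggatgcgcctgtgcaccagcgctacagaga
Cox4i1, within chr19:51030141-51030200, plus strand: atggtccatgttAATAAAtgaccagtttac
Cox4i2, within chr3:143114177-143114236, plus strand: cccttctgctccAATAAAagcagcctgcat

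Ndufaf7, an assembly factor that methylates a core subunit of complex I, was read by a pair of probes 6070 bases apart, of which the downstream one neither spans an intron nor holds AATAAA. Its upstream probe, over an intron at chr6:1720961-1721919 on the plus strand of rn4, is shown because it parts from the downstream one.
Ndufaf7, upstream probe: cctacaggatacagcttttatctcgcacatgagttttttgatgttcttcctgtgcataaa
This probe ranged from -1.39 to -0.95 (median -1.05) in the KI-treated group and from -3.17 on control 4 to -1.31 (median -1.75) in the control group. The groups barely overlapped, and controls 4 and 6, at -3.17 and -2.82, lay below the rest. The log2 difference was 0.91 ± 0.27 (exact permutation p = 0.0035; limma adjusted p = 0.353), and 0.52 without those arrays. The downstream probe, the brighter one and therefore the member, ranged from -1.23 to -0.86 (median -1.03) and from -1.20 to -0.76 (median -0.94), with a difference of -0.12 ± 0.10 (exact permutation p = 0.15). In 5 of 6 KI-treated arrays it was below the control median, while the upstream probe was above it in 6 of 6. Over the 17 members with a pair of probes this was the only pair whose differences were more than 0.5 apart.

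**Figure D5:**
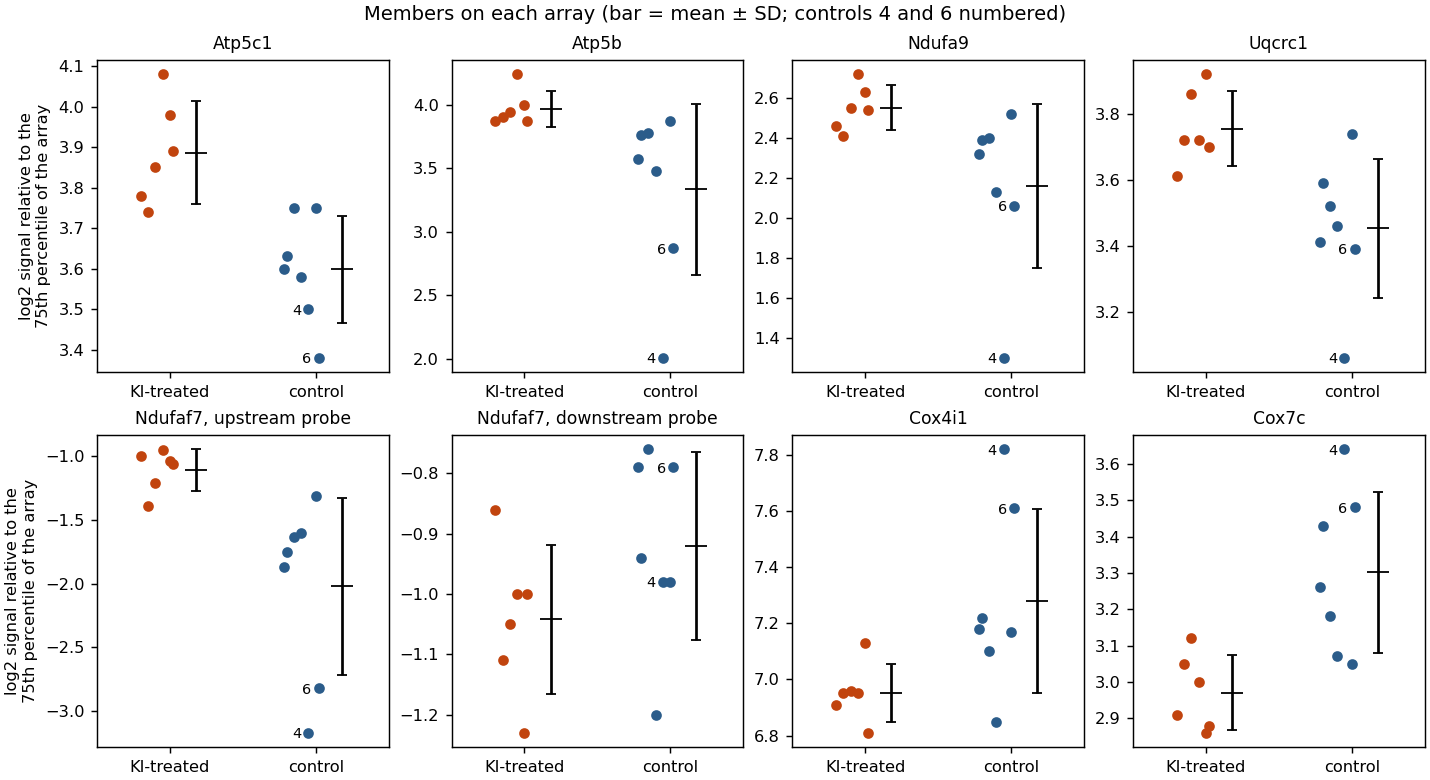
Points are single arrays, in log2 of the signal relative to the array's 75th percentile, with the mean and SD of each group, and controls 4 and 6 are numbered. These 2 arrays are the lowest for Atp5c1, Atp5b, Ndufa9, Uqcrc1 and the upstream probe of Ndufaf7, and the highest for Cox4i1 and Cox7c.

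Promoters were searched for the letters bound by 3 factors known to act on respiratory genes. RefSeq promoters (build GRCr8, 250 bases before to 50 after the start) matched 77 of the 90 members by symbol, with 1 promoter for each of 27457 symbols. GCATGCGC, a site of NRF1, was found on either strand in 10 of the 77 (13%), against 2.66% of all promoters. CCGGAAGT, a site of the ETS factors including GABP, was found in 7 (9.09%, against 4.01%), and AAGATGGC, a site of YY1, in 15 (19.5%, against 3.44%). The members with these letters had median differences of -0.20, -0.20 and -0.18, near the -0.19 of all members. The 100 bases before the start are shown for Uqcrc1, which holds the NRF1 letters, and for the isoform pair Cox8a and Cox8b, of which the ubiquitous Cox8a holds the ETS letters at 2 places and Cox8b at none, with the matches in capitals. Coordinates are those of GRCr8, other than the probes'.
Uqcrc1, chr8:118468123-118468222, plus strand: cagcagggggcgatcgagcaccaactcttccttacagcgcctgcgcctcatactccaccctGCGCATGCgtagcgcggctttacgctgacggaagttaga
Cox8a, chr1:213833624-213833723, minus strand: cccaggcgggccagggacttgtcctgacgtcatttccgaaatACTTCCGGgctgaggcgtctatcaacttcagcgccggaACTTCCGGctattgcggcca
Cox8b, chr1:205408274-205408373, minus strand: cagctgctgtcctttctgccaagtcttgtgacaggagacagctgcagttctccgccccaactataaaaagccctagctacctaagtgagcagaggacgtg

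Other genes of the pathway were close to the members in some lists only. The median difference was -0.17 for other nuclear chain proteins and -0.16 for further assembly factors. It was -0.04 for enzymes of the citric acid cycle and pyruvate dehydrogenase and -0.01 for regulators of mitochondrial genes. Without controls 4 and 6 these medians were, in order, -0.01, -0.02, 0.08 and 0.02. Of 7 tested nuclear chain proteins outside the name rule, such as cytochrome c and its partners, 0 passed the unadjusted threshold, and those with the smallest p were Etfb, an electron transfer flavoprotein, with -0.29 ± 0.16 and Atpif1, the inhibitor of the ATP synthase, with -0.27 ± 0.17. Of 27 further assembly factors 1 was higher and 1 lower at that threshold, against 5.71% and 7.01% of all tested probes. Coa5, a factor for complex IV, had -0.40 ± 0.16 (exact permutation p = 0.00466; limma adjusted p = 0.368), but 0.02 as a mean over all its tested probes. Bcs1l, which inserts the Rieske protein into complex III, was well above background on 10 of 13 arrays. It had 1.11 ± 0.47, with controls 4 and 6 at -5.60 and -5.20, and 0.41 without them.

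Of 15 enzymes of the citric acid cycle and pyruvate dehydrogenase 1 was higher and 0 lower at the unadjusted threshold, against 5.71% and 7.01% of all tested probes. Sucla2, a subunit of succinyl-CoA synthetase, ranged from 2.49 to 2.79 (median 2.66) with KI and from 2.04 to 2.57 (median 2.28) in the control group. Its highest control arrays, 2 and 4, lay within the KI-treated range. The difference was 0.31 ± 0.11 (exact permutation p = 0.00758; limma adjusted p = 0.356), and 0.35 without controls 4 and 6. Citrate synthase (Cs), the entry enzyme of the cycle, had -0.30 ± 0.16. Of 12 regulators of mitochondrial genes 2 were higher and 0 lower, against the same shares. Without controls 4 and 6 the count of higher ones was 0, against 3.46% of all probes. Gabpb1, a subunit of GABP, had 0.38 ± 0.16 with 2 control arrays inside or above the KI-treated range, and Ppargc1a, the coactivator PGC-1α, had 0.80 ± 0.36, or 0.35 without controls 4 and 6.

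The subunits encoded in mitochondrial DNA were not found by symbol (0 of 26 names). The arrays held 16 probes with coordinates on the mitochondrial chromosome, of which 12 carried a transcript identifier that was not paired with a gene here. Among these 12, 0 were higher and 5 lower at the unadjusted threshold, against 7.01% of all probes, with differences from -0.50 to 0.14 and a median of -0.20. After quantile normalization the median was -0.01, with 6 above and 6 below 0, and 0 of the 12 passed that threshold. Without controls 4 and 6 the median was -0.14, with 10 below 0. The probes lower at the unadjusted threshold then had differences of -0.44, -0.34, -0.26 and -0.23, when 5.91% of all probes were lower. For the probe at -0.26 the groups did not overlap over the 13 arrays, against 0.327% of all probes with the KI-treated group lower. Its difference was then -0.33 (exact permutation p = 0.000583, limma adjusted p = 0.353), and -0.08 after quantile normalization.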

How the data were processed

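Each array has a file of the Agilent scanner software (Feature Extraction, version 10.7.3.1), which the authors deposited with spot intensity corrected for background and spatial trend but not scaled between arrays. They also deposited log2 values in 1 table, made by a normalization that is not given in the sources used here. The build of the probe coordinates, per the file headers, is rn4.

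Control and outlier spots were dropped, spots of a probe were averaged (45598 probes), and each array's 75th percentile was subtracted from log2 of its processed signal. Probes flagged as well above background on 6 or more arrays (25717, of which 67 had a missing value) were tested with limma (version 3.58.1, R 4.3.3; lmFit and eBayes, Benjamini-Hochberg, threshold 0.05), which was first checked on simulated arrays. Single genes also had an exact permutation test, two-sided, over every division of the arrays into 6 and 7 (Python 3.11.15). No gene spot was saturated, no column of other samples was used (0), and precision is limited by the number of arrays.

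The members, gene lists and tests were chosen with earlier results of these data known. Genes named are, for each complex, the 4 with the smallest limma p, the succinate dehydrogenase subunits, the isoform pairs of complex IV, the subunit c genes, members with probes over 0.5 apart, and the 2 with the smallest p of each pathway list. Alternatives were other background corrections and scalings, the deposited log2 values, other filters, slide, scan session or replicate number as a block, array weights, trended and robust variances, the methods' t-test, the mean over a gene's probes and leaving out arrays. Members matched RefSeq by accession, symbol or synonym (90 of 90, of which 17 have another symbol now).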

Additional observations from a re-analysis of the deposited data

Results flagged for a closer look

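The values of 3 arrays stood far from the rest of their group by Dixon's ratio, out of 94 groups of values examined, where chance gives about 1 in 20. Ndufa9 was at 1.30 on control 4, with the next control array at 2.06 (ratio 0.62). Cox6b2 was at 2.50 on KI-treated 3, with the next KI-treated array at 2.96 (ratio 0.72). Atp5b was at 4.24 on KI-treated 4, with the next KI-treated array at 4.0 (ratio 0.66). Controls 4 and 6 stand close to each other for most members, and Dixon's ratio does not pick out such a pair. No cause was tested.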

How the results depend on the processing

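The adjusted count over all probes stayed at 0 except with array weights (50, with 0 members among them) and without control 1 or control 2 (1 each), a range of 0 to 1 on leaving out single arrays. At an unadjusted p under 0.05 the higher members numbered 2 with the replicate block, against 4.13% of all probes. They numbered 2 to 5 without single arrays, against 3.53% to 8.17%. There were 6 after quantile normalization (7.1% of all probes), with normexp and quantile normalization (7.33%) and in the deposited values (7.33%). The 5 lower members became 3 in the deposited log2 values, 9 with normexp and the 75th percentile, 2 after quantile normalization, 14 with scan session as a block, 9 with slide as a block, 8 with trended and robust variances, 1 without controls 4 and 6, and 1 to 30 without single arrays. In the same order the lower share of all probes was 5.28%, 13.5%, 5.66%, 10.9%, 8.4%, 7.16%, 5.91% and 4.87% to 9.76%. With the replicate number as a block the lower members numbered 2, against 5.03% of all probes, and the median difference was -0.198. Same-numbered animals did not deviate together (correlations from -0.109 to 0.071), and the main fit did not pair them. These correlations were taken over all probes at once and cannot exclude a shared litter. The methods' t-test gave 1219 higher and 1923 lower probes unadjusted and 0 after Benjamini-Hochberg. Of the unadjusted calls over all probes 44.9% were higher, against 25.1% with normexp and the 75th percentile, 33.7% with no filter, 55.6% after quantile normalization, 57.3% with normexp and quantile normalization, 58.1% in the deposited values and 61.7% with the 75th percentile over spots, an alternative chosen after seeing the data, as was leaving out controls 4 and 6 together. The median of the members kept its sign in all of these, from -0.251 to -0.036, and that of complex V did not, at 0.031 after quantile normalization, 0.002 with normexp and quantile normalization and 0.022 without controls 4 and 6.

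Of 40 named genes 7 changed direction under some alternative (28 of 1118 values), and 0 values passed the adjusted threshold. Sdhd was at 0.001 without controls 4 and 6. Sdha was at 0.03 in the deposited values, 0.01 with normexp and quantile normalization, 0.051 after quantile normalization and 0.057 without controls 4 and 6. Ndufa4 was, in the same order, at 0.07, 0.063, 0.095 and 0.044, at 0.007 with the percentile over spots and 0.072 with array weights. Atp5g1 was at 0.001 in the deposited values, 0.023 after quantile normalization and 0.082 without controls 4 and 6. Atp5g3 was at 0.072 over spots, 0.038 with array weights, 0.096 in the deposited values, 0.02 with normexp and the 75th percentile, 0.063 with normexp and quantile normalization, 0.102 after quantile normalization, 0.012 with scan session as a block, 0.107 without controls 4 and 6, and -0.076 to 0.052 without single arrays. Means over all tested probes gave 0.394 for Ndufaf7 and 0.016 for Coa5. The causes were not tested.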
